A study of Mus musculus with 8 samples.

Results

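Ccl3, Ccl4, Ccl5, Cxcl2 and Cxcl10 are 5 chemokine genes that neutrophils are known to be able to transcribe, and all 5 were found by name among the 10970 genes of the table. Their unique molecular identifiers (UMIs, tags that let amplified copies of one transcript be counted once) were read in 1421 single neutrophils by SCRB-seq, a plate method in which each picked cell has its own barcode. Donor mice were C57BL/6J males of 7 to 12 weeks that received PBS or 0.5 mg/kg LPS intraperitoneally, and neutrophils were enriched from peripheral blood (PB) or bone marrow (BM) by negative selection and kept on ice. The methods place the preparation 4 h after either injection, while the sample titles place PBS samples at 0 h. This gives 4 groups, PBS-primed PB, LPS-primed PB, PBS-primed BM and LPS-primed BM neutrophils, with 2 labelled samples each. The 711 cells of these 8 samples form batch 7 of the deposited annotation, and each sample is a plate of its own, so differences between the samples of a group include those between plates. The 710 cells of batch 6, on 9 plates, carry a group but match no single sample and are given per plate without SD or n. The labels do not say what their sample numbers stand for. If they stand for batches, the 2 samples of a group would be 2 plates of batch 7, and the tests would compare plates within that batch. Nothing in the labels says whether the samples came from separate mice, so p-values measure only the spread between these samples, which may be technical.

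Chemokines are small secreted proteins that bind receptors on leukocytes and direct their movement. CCL3 and CCL4 are macrophage inflammatory proteins and CCL5 is RANTES, and CCL3 and CCL5 act on CCR1. These 3 draw monocytes, T cells, NK cells and neutrophils. CXCL2 is a ligand of CXCR2, the main receptor by which neutrophils enter inflamed tissue and leave the marrow, and CXCL10 acts on CXCR3 of activated T and NK cells. LPS is sensed by CD14, TLR4 and MD-2 (Ly96). The MyD88 arm activates NF-kB, which binds kappaB sites, and the TRIF arm leads to interferon, whose signal reaches interferon-stimulated response elements (ISREs) through STAT2 and IRF9.

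In the build of the deposited data (mm9, equal to NCBIM37), 3 members lie on chromosome 11 and 2 on chromosome 5. Ccl3 (ENSMUSG00000000982.5) spans chr11:83461346-83462857 on the minus strand and Ccl4 (ENSMUSG00000018930.3) chr11:83476086-83478185 on the plus strand, with 13228 bases between them. Ccl5 (ENSMUSG00000035042.2) lies on the minus strand at chr11:83339280-83344020. Cxcl2 (ENSMUSG00000058427.6) spans chr5:91332897-91334935 on the plus strand and Cxcl10 (ENSMUSG00000034855.7) chr5:92775664-92777915 on the minus strand. RefSeq promoters (build GRCm38.p6) matched 3 of the 5 members, Cxcl10, Cxcl2 and Ccl3, and the 250 bases before the start site are shown for them, since all 3 rose in LPS-primed PB neutrophils. Capitals mark matches, on either strand, to the kappaB consensus or to the ISRE letters (GAAA, any 2 bases, GAAA). Cxcl10 (chr5:92348890-92349139, minus strand), Cxcl2 (chr5:90903649-90903898, plus strand) and Ccl3 (chr11:83649379-83649628, minus strand) read 5′ to 3′ as follows.
Cxcl10: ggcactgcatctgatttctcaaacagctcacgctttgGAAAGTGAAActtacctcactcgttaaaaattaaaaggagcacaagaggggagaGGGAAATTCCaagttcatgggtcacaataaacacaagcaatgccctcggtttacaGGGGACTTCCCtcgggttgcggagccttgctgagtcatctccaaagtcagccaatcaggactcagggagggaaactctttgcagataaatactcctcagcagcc
Cxcl2: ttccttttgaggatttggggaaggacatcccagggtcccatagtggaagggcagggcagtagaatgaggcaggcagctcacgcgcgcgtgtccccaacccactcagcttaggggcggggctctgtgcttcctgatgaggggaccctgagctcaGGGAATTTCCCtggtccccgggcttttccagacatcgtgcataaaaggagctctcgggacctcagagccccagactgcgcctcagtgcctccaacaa
Ccl3: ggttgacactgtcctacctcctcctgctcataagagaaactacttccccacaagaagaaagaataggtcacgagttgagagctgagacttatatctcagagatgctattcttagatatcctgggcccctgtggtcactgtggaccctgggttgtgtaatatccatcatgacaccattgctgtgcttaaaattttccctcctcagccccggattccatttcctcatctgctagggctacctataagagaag

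The Cxcl10 window held an ISRE match that began 213 bases before the start site and kappaB matches that began 159 and 104 bases before it. The Cxcl2 window held a kappaB match that began 97 bases before the start, and in both genes a second kappaB match shifted by 1 base overlapped it (for Cxcl10, the one nearer the start). Ccl3 had neither set of letters in this window. Of 32851 promoter windows of the same length, 2.98% held the ISRE letters and 7.25% a kappaB match, and a match is a description of letters, not of a bound factor.

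The plates differed in depth and in a few markers of other cells. Summed UMIs per plate ran from 3240559 to 12020616, and the median per cell from 32295 to 117374. All 13 neutrophil markers were detected on every plate, with a summed level of 123794 to 184465 CPM (the share of a plate's UMIs that a gene took, scaled to the same total on each plate) in PBS-primed PB plates, 290142 to 391888 in LPS-primed PB plates and 352816 to 441658 in BM plates. PBS-primed PB plates also held 82.4 to 1088 CPM of NK cell markers (3 to 7 of 7 detected) and 59.8 to 568 CPM of T cell markers (5 to 7 of 7), against at most 1.18 and 42.9 CPM in LPS-primed PB plates. Cells with at least 1000 CPM of these markers numbered 4 and 4 in PBS-primed PB samples 1 and 2, 5 and 1 on the batch 6 plates of that group, 1 on an LPS-primed PB plate of batch 6 and 2 in LPS-primed BM sample 1. Well barcodes were reused on the plates, so every cell's barcode also occurs on another plate.

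LPS-primed PB neutrophils were compared first with PBS-primed PB neutrophils, the question being which chemokine transcripts circulating neutrophils carry after LPS. Ccl3, Ccl4, Cxcl2 and Cxcl10 rose and Ccl5 did not pass the test, so that 4 of the 5 members were called (edgeR's quasi-likelihood test on UMIs summed per sample, Benjamini-Hochberg adjusted p under 0.05, 2 against 2 samples) where 3.94% of the 8478 genes tested were called. Values below are CPM of the summed plate, and log2 fold changes come from the fit with TMM scaling.

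Cxcl10, the CXCR3 ligand, measured 12.7 and 19.7 CPM in samples 1 and 2 of PBS-primed PB and reached 2132 and 2096 CPM in those of LPS-primed PB. In batch 6 the PBS plates had 5.68 and 4.50 CPM and the LPS plates 870 and 1252 CPM. Every LPS-primed PB plate stood above every other plate of the series, in both batches. The log2 fold change was 7.95 ± 0.63 (SE, adjusted p = 4.14e-05). The highest cell of a PBS-primed PB plate held 2 to 9 UMIs of Cxcl10, and the highest of an LPS-primed PB plate 851 to 3110.

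Ccl4, a macrophage inflammatory protein gene, measured 21.8 and 35.2 CPM after PBS and 1052 and 1666 CPM after LPS in the PB samples, a log2 fold change of 6.51 ± 0.66 (SE, adjusted p = 0.000206). The batch 6 plates had 791 and 227 CPM after PBS and 1174 and 644 CPM after LPS. The groups were apart in batch 7 and overlapped in batch 6. Of the 3622 Ccl4 UMIs on the first batch 6 PBS plate, 94.3% came from 1 cell, which also held 2063 UMIs of Gzma and 1311 of Nkg7, genes of cytotoxic lymphocytes, beside 4944 of the neutrophil gene S100a8. Without cells of at least 1000 CPM of T and NK cell markers that plate had 47.2 CPM of Ccl4, and the other PBS plate of batch 6 had 228 CPM. On the latter plate 2 cells held 84.7% of all Ccl4 UMIs. Without the 2 highest cells of each plate the batch 6 plates had 30.3 and 35.2 CPM after PBS and 316 and 336 CPM after LPS, and no longer overlapped.

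Ccl3, the CCR1 ligand encoded beside Ccl4, measured 29.2 and 29.6 CPM after PBS and 517 and 379 CPM after LPS in the PB samples, a log2 fold change of 4.83 ± 0.89 (SE, adjusted p = 0.0113). Its batch 6 plates had 203 and 353 CPM after PBS and 576 and 501 CPM after LPS. Every LPS-primed PB plate was above every PBS-primed PB plate, but the PBS plates of batch 6 lay nearer to the LPS plates than to the PBS samples of batch 7 on a log scale.

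Cxcl2, the CXCR2 ligand, measured 21.4 and 46.9 CPM after PBS and 665 and 501 CPM after LPS in the PB samples, a log2 fold change of 5.01 ± 0.89 (SE, adjusted p = 0.00928). Its batch 6 plates had 514 and 447 CPM after PBS and 1130 and 800 CPM after LPS. Of the PBS plates of batch 6, 1 thus reached the level of LPS-primed PB sample 2 of batch 7, while LPS stood above PBS within each batch. The calls of Ccl3 and Cxcl2 were lost when either PBS-primed PB sample was left out (adjusted p = 0.139 and 0.138 without sample 1, 0.15 and 0.0936 without sample 2, same test).

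Ccl5, the CCR1 ligand known from T and NK cells, measured 270 and 1.23 CPM after PBS and 252 and 109 CPM after LPS in the PB samples, with a log2 fold change of 1.29 ± 1.46 (SE, adjusted p = 0.735). Its batch 6 plates had 607 and 219 CPM after PBS and 21.2 and 1.4 CPM after LPS. The groups overlapped in batch 7, and in batch 6 the PBS plates were the higher ones. In LPS-primed PB samples 1 and 2 a single cell held 93.3% and 93.6% of the Ccl5 UMIs. Neither cell had a UMI of T or NK cell markers, so both stay in the fits below. Without the 2 highest cells of each plate the PB samples had 18.6 and 0.315 CPM after PBS and 13.2 and 5.71 CPM after LPS, and overlapped. Leaving out PBS-primed PB sample 1 turned the value into a call (log2 fold change 7.996, adjusted p = 0.0399), and leaving out the T and NK marked cells gave 4.97 (adjusted p = 0.0558), an alternative added after the data had been seen.

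**Figure D1:**
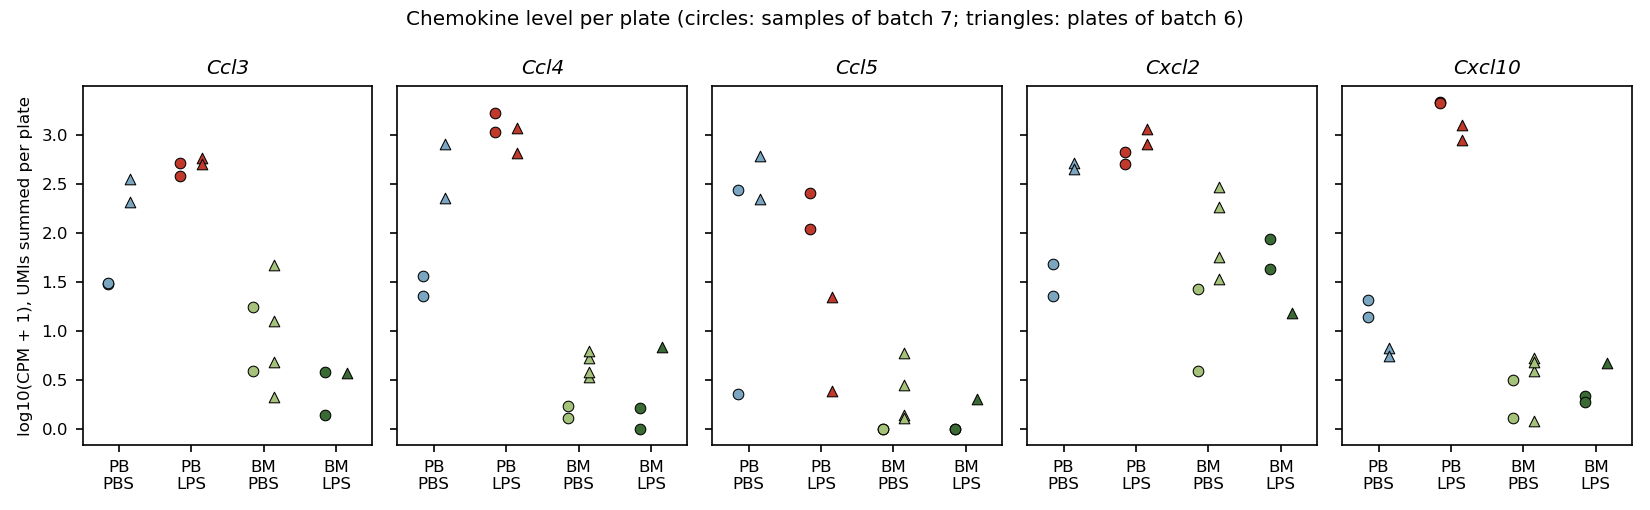
Level of each chemokine per plate, as log10(CPM + 1) of the UMIs summed over the plate, in the 4 groups. Circles are the samples of batch 7 and triangles the plates of batch 6. Cxcl10 of LPS-primed PB neutrophils (870 to 2132 CPM) stood above all other plates, whereas the PBS-primed PB triangles of Ccl3, Ccl4 and Cxcl2 lay well above the circles.

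The size of the LPS effect therefore differed between batches for 3 of the 4 called genes. With the cells of each group and batch pooled, the CPM ratio of LPS-primed to PBS-primed PB cells came to 15.4 (batch 7) and 1.91 (batch 6) for Ccl3, 49.8 and 1.93 for Ccl4, and 18.7 and 2.06 for Cxcl2. Cxcl10 went the other way, with ratios of 137 in batch 7 and 205 in batch 6. Without the T and NK marked cells the batch 6 ratio of Ccl4 was 6.21, while those of Ccl3 and Cxcl2 were 2.06 and 1.98. This difference between batches was not tested, and batch 6 gives 1 pooled value per group.

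TMM scaling, which allows for a few abundant genes taking up much of a library, enlarged these values. Its factors in PB were 1.35 and 1.37 after PBS and 0.748 and 0.694 after LPS. Over all genes the log2 fold change had a median of -0.11 on the TMM scale, against -1.02 when only library sizes were used. On the TMM scale the batch 6 ratios were 4.12 for Ccl3, 4.16 for Ccl4, 4.44 for Cxcl2 and 442 for Cxcl10, beside 27.4, 86.9, 30.7 and 236 in batch 7. All 4 calls held with library size alone (4.81% of genes called), with log2 fold changes of 3.92, 5.57, 4.09 and 7.03 in the same order. With both batches in 1 fit and batch as a term, the log2 fold changes were 3.63, 5.43, 3.81 and 8.07. All 4 genes were again called, where 7.55% of genes were.

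PBS-primed PB plates of the 2 batches also differed in other markers. Platelet markers summed to 498 and 310 CPM in batch 7 and to 2873 and 1198 CPM in batch 6, and liver transcripts such as Alb to 1613 and 2410 CPM in batch 7 and to 0.655 and 0.188 CPM in batch 6. On the LPS-primed PB plates platelet markers summed to 129 and 73.6 CPM in batch 7 and to 1.66 and 49.6 CPM in batch 6, and liver transcripts to 921 and 967 CPM and to 2 and 0.107 CPM. The part of these differences in the chemokine levels was not tested.

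**Figure D2:**
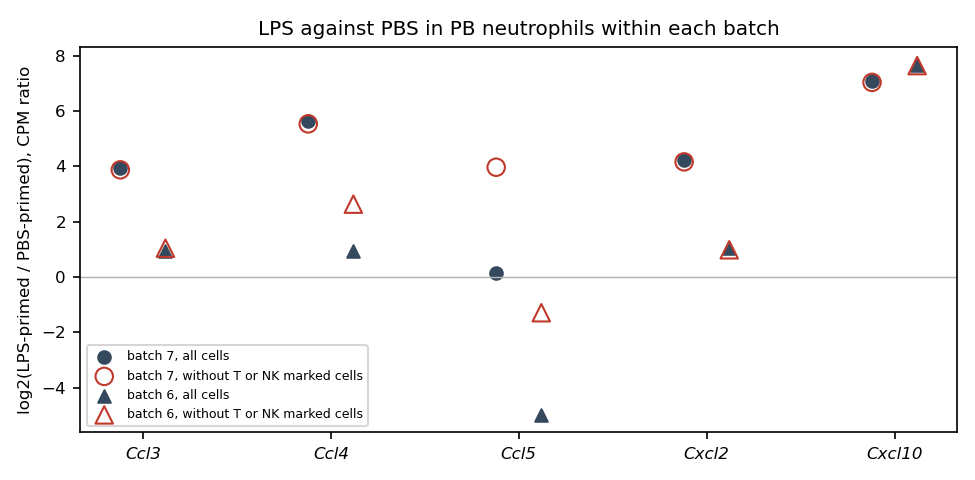
CPM ratio of LPS-primed to PBS-primed PB neutrophils within each batch, as log2, with the cells of a group and batch pooled. Filled symbols use all cells, open red symbols leave out cells with at least 1000 CPM of T and NK cell markers, circles are batch 7 and triangles batch 6. Cxcl10 kept ratios of 137 and 205, whereas Ccl3, Ccl4 and Cxcl2 had smaller ratios in batch 6. The ratio of Ccl5 rose to 15.7 in batch 7 once the marked cells were left out but stayed below 1 in batch 6 (0.409). In batch 7 a single cell of each LPS-primed PB sample held 93.3% and 93.6% of its Ccl5 UMIs.

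The share of cells with a UMI followed the levels. Because deep cells show more genes, every cell was thinned at random to 5000 UMIs before counting (no cell was shallower), and intervals are exact Clopper-Pearson intervals at 95% that cover counting error only. Cxcl10 was seen in 69.2% of 91 cells (interval 58.7 to 78.5%) and 65.1% of 86 cells (54.1 to 75.1%) of the LPS-primed PB samples, against 2.22% and 5.81% after PBS. On the batch 6 plates the shares were 58.9% and 70.3% after LPS and 4.55% and 2.38% after PBS. Cxcl10 had the highest share of the 5 members on each of the 4 LPS-primed PB plates.

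Ccl3 was seen in 42.9% and 33.7% of LPS-primed and 8.89% and 15.1% of PBS-primed PB cells in batch 7, and in 45.3% and 50.5% against 25.0% and 23.8% in batch 6. The shares for Cxcl2 were 46.2% and 33.7% against 5.56% and 19.8% in batch 7, and 52.6% and 59.3% against 33.0% and 23.8% in batch 6. For Ccl4 they were 35.2% and 48.8% against 7.78% and 15.1%, and 36.8% and 34.1% against 17.0% and 8.33%. In each of these 3 genes every LPS-primed PB plate had a higher share than every PBS-primed PB plate, batch 6 included, although the levels of Ccl4 overlapped and the nearest shares of Cxcl2 (33.0% after PBS and 33.7% after LPS) lay within each other's intervals. Ccl5 was seen in 1.10% to 10.99% of LPS-primed and in 1.16% to 27.3% of PBS-primed PB cells, and the groups overlapped.

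As deposited, without thinning, most LPS-primed PB cells held at least 1 UMI of each of the 4 called genes, on average over both samples 87.4% for Ccl3, 91.0% for Ccl4, 84.7% for Cxcl2 and 96.6% for Cxcl10. Ccl5 was then found in 45.3% of LPS-primed PB cells, although 93.3% and 93.6% of its UMIs came from 1 cell in each sample. PBS-primed PB sample 2, where the highest cell held 2 UMIs, had Ccl5 in 3.49% of cells as deposited, and the BM samples in none of 83, 92, 91 and 92 cells. In batch 6, however, Ccl5 was found in 29.5% of the 44 cells of a PBS-primed BM plate whose highest cell held 2 UMIs. Whether single UMIs came from other cells of a plate was not tested. With more than 0.2% of the plate's UMIs of the gene asked of a cell, the mean share in the LPS-primed PB samples was 37.8% for Ccl3, 15.8% for Ccl4, 6.82% for Ccl5, 28.8% for Cxcl2 and 27.7% for Cxcl10. In the PBS-primed PB samples it was higher, at 48.4%, 39.2%, 8.41%, 54.7% and 41.5% in the same order. For the 4 called genes the limit lay below 1 UMI in those samples, so these shares do not compare the groups.

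**Figure D3:**
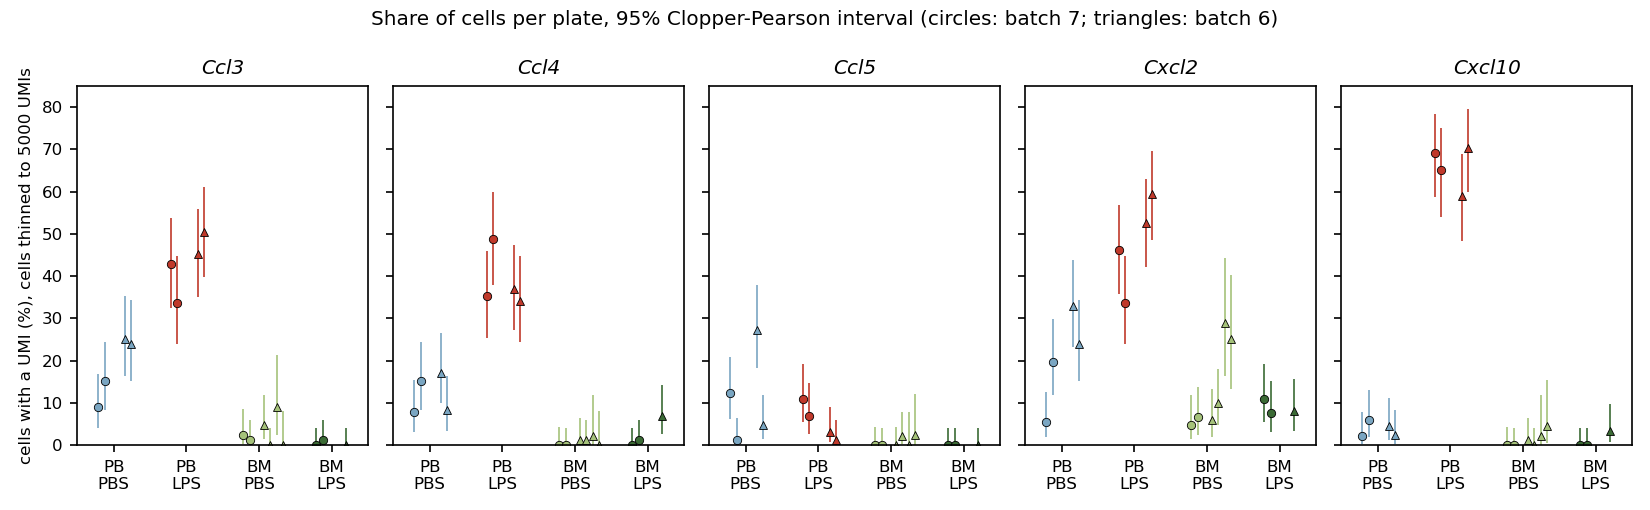
Percentage of cells with at least 1 UMI of each chemokine after every cell was thinned to 5000 UMIs, per plate, with exact 95% intervals. Circles are batch 7 and triangles batch 6. The LPS-primed PB plates lie highest for Ccl3, Ccl4, Cxcl2 and Cxcl10, and Cxcl10 reached 58.9 to 70.3% there.

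The UMIs of each gene were held by few cells. In LPS-primed PB samples 1 and 2 the 10 highest cells held 94.2% and 95.7% of all Ccl4 UMIs, 79.7% and 88.2% of Ccl3, 78.6% and 90.1% of Cxcl2, and 77.0% and 79.0% of Cxcl10. On the LPS plates of batch 6 they held 91.4% and 92.4% for Ccl4, 79.2% and 59.7% for Ccl3, 73.7% and 51.9% for Cxcl2, and 54.1% and 63.4% for Cxcl10. On each of these plates the 10 highest cells held a larger share for Ccl4 than for Ccl3, Cxcl2 or Cxcl10. The number of cells that together held 50% of the UMIs was 1, 2, 1 and 3 for Ccl4 on these plates, and 6, 4, 10 and 6 for Cxcl10.

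The typical cell lay far below the mean of its plate. The median LPS-primed PB cell had 166 and 172 CPM of Cxcl10 in samples 1 and 2, against 2132 and 2096 CPM for the summed plates. For Ccl4 the medians were 59.1 and 84.4 CPM against 1052 and 1666. Cells with the median level carried a few UMIs, while few cells carried most of the total. The 2 highest cells of each gene were then left out in every sample. The log2 fold changes of LPS against PBS were still 4.61 for Ccl3, 5.79 for Ccl4, 4.66 for Cxcl2 and 7.60 for Cxcl10. All 4 were called, where 6.02% of genes were.

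**Figure D4:**
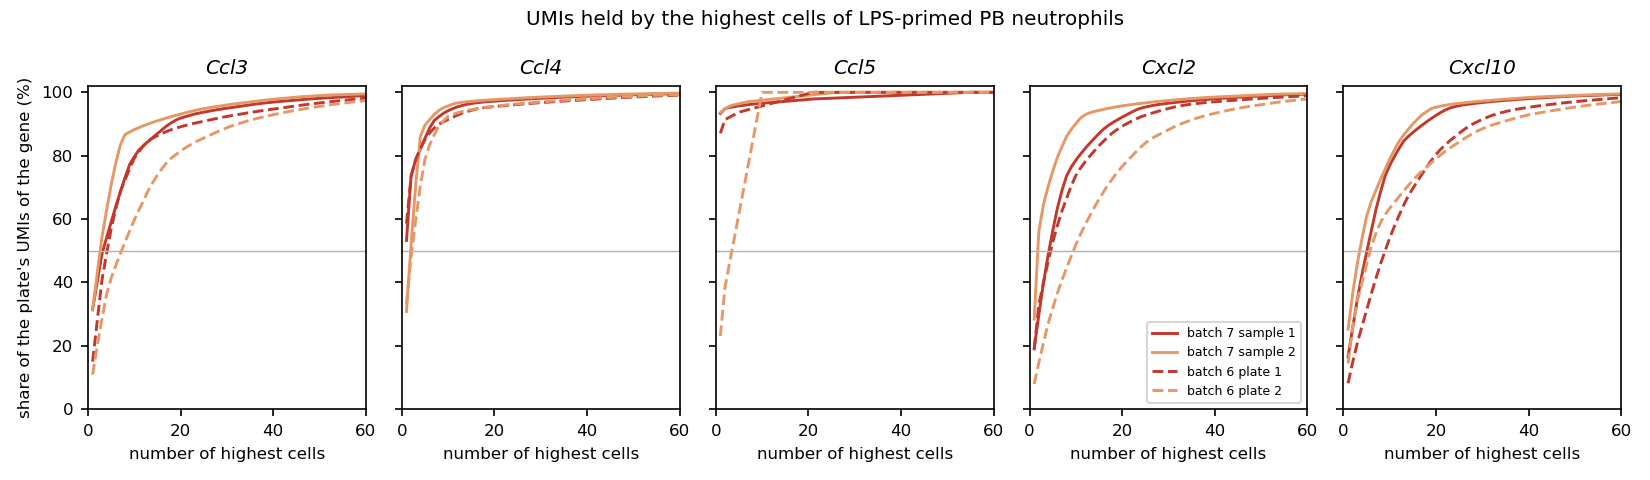
Cumulative share of a plate's UMIs of each gene, in percent, against the number of highest cells counted, for the 2 samples of batch 7 (solid) and the 2 plates of batch 6 (dashed) of LPS-primed PB neutrophils. The grey line marks 50%. Ccl5 reached over 87% with a single cell on 3 plates, and Ccl4 passed 50% within 3 cells on all 4.

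The cells with the most Ccl5 UMIs were of 2 kinds. In PBS-primed PB sample 1 the highest cell held 1148 Ccl5 UMIs, 84.2% of the plate, together with 181 UMIs of Nkg7, 133 of Cd3g and 302 of Klrd1, all lymphocyte genes, beside 16428 UMIs of S100a8. On the batch 6 PBS plates the highest cells held 2286 and 1083 Ccl5 UMIs together with 2063 and 876 UMIs of Gzma, and the latter had 167 UMIs of S100a8. In LPS-primed PB samples 1 and 2 the highest cells held 1505 and 599 Ccl5 UMIs, and that of an LPS plate of batch 6 held 222. These 3 cells had 0 UMIs over all 14 T and NK cell markers and 9985, 6942 and 8290 UMIs of neutrophil markers, of which 12, 13 and 13 of 13 were detected. By CPM their neutrophil markers (141515, 86004 and 276952) lay below those of the median cell of their plates (271744, 308640 and 409068). They held 40, 0 and 24 UMIs of Fcgr1. The leading Ccl5 cells of the batch 6 PBS plates also had 13 and 12 of 13 neutrophil markers detected, at 36054 and 18490 CPM. The leading Ccl5 cell thus carried T or NK markers on these PBS plates and no such UMI on these LPS plates. Cells with at least 1000 CPM of Ccl5 numbered 2, 0, 3 and 1 on the PBS-primed and 1, 1, 1 and 0 on the LPS-primed PB plates. The next cell by UMIs in PBS-primed PB sample 1 (1489 CPM of Ccl5) held 930 UMIs of T cell markers, and that of the first batch 6 PBS plate (14643 CPM) held 77.

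The highest cells for the other members in LPS-primed PB neutrophils carried neutrophil markers. Each of the 2 highest cells for Ccl3, Ccl4, Cxcl2 and Cxcl10 on each LPS-primed PB plate had 12 or 13 of the 13 neutrophil markers and at most 2 UMIs over the T cell markers. The number of neutrophil markers detected does not by itself name the cell type. T or NK marked cells with high Ccl5 on the PBS-primed PB plates had 10 to 13 of them. A single cell of sample 1 was the highest for Ccl3 (1045 of 3313 UMIs), Ccl4 (3587 of 6738) and Cxcl10 (2248 of 13650), and held 426 UMIs of Cxcl2. It also held 548 UMIs of monocyte or macrophage markers (5830 CPM, against 644 CPM in the median cell of its plate), 453 of them Ly6c2 and 94 Fcgr1, and 96125 CPM of neutrophil markers against 290142 CPM for the plate. In sample 2 a single cell led Ccl3 and Cxcl2 with 696 and 838 UMIs, held 2077 of Ccl4 and 1172 of Cxcl10, and had 580 CPM of monocyte or macrophage markers, close to the plate's median cell (546 CPM). The leading Ccl4 cell of sample 2 held 350 UMIs of these markers (2175 CPM), 338 of them Fcgr1. In batch 6 the cell with 8261 Ccl4 UMIs, 58.6% of its plate, held 1037 of Ccl3 and 538 of Cxcl2 but 11 of Cxcl10, with 2540 CPM of monocyte or macrophage markers against 1679 CPM in the plate's median cell. A single cell thus led at least 2 genes on 3 of the plates, while on the second batch 6 plate a different cell led each of the 4. Monocyte or macrophage markers summed to 982 to 1686 CPM in LPS-primed and 224 to 605 CPM in PBS-primed PB plates, and their part in the chemokine levels was not tested.

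Cells with at least 1000 CPM of a gene, a limit chosen after the data had been seen, were taken as strong producers to ask whether the same cells make several members. In LPS-primed PB sample 1, 31 of 91 cells (34.1%) were strong for at least 1 of Ccl3, Ccl4, Cxcl2 and Cxcl10, and they held 94.6% of the UMIs of these genes. Of them 10 were strong for 1 gene, 12 for 2, 6 for 3 and 3 for all 4. In sample 2, 24 of 86 cells (27.9%) were strong and held 93.2% of the UMIs, 12 for 1 gene, 8 for 2, 1 for 3 and 3 for all 4. On the batch 6 plates 40 of 95 and 51 of 91 cells were strong, 21 and 33 of them for 1 gene and 4 and 2 for all 4. After PBS the strong cells numbered 2 of 90 and 0 of 86 in batch 7 and 13 of 88 and 17 of 84 in batch 6, with none strong for all 4.

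Of the 10 cells with the most Ccl3 per UMI, 9, 7, 10 and 7 were also strong for another member on the 4 LPS-primed PB plates. Of the 12, 9, 12 and 9 cells strong for Ccl4, 10, 6, 8 and 5 were also strong for Cxcl10, and 6, 4, 8 and 4 also for Ccl3. Most strong Ccl4 cells thus carried Cxcl10 as well, while Cxcl10 was strong in 27, 18, 26 and 26 cells and hence in many cells without strong Ccl4. Ccl5 was strong in 1 cell each on 3 of these plates and in none on the fourth. The strong Ccl5 cell of sample 1 also had 4068 CPM of Ccl3, 2225 of Ccl4 and 4918 of Cxcl10. That of sample 2 had 4126 CPM of Cxcl10, and that of the first batch 6 plate 3809 CPM of Cxcl2. Each of them was thus strong for at least 1 other member.

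Pairs of genes gave the same picture less sharply when all thinned cells were used. Ccl4 was found in 51.3% of the 39 cells with Ccl3 and 23.1% of those without in LPS-primed PB sample 1, and in 62.1% and 42.1% in sample 2. On the batch 6 plates these shares were 34.9% and 38.5%, and 43.5% and 24.4%. The excess was absent on 1 of the 4 plates. With the limit of 0.2% of the plate's UMIs, an alternative added later, Ccl4 was found in 38.9%, 29.0%, 21.7% and 28.8% of cells with Ccl3 and in 3.64%, 5.45%, 14.3% and 10.3% of those without. By the same limit Cxcl10 was found in 64.3%, 47.8%, 50% and 66.0% of cells with Cxcl2 and in 12.7%, 19.0%, 41.0% and 44.7% of those without, so that the excess was smaller in batch 6.

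Across cells of a plate, Pearson's r of log2(CPM/10 + 1) is given as a description without p, since cells of a plate share a library. Between Ccl3 and Ccl4 it was 0.56 and 0.49 in LPS-primed PB samples 1 and 2 (91 and 86 cells) and 0.58 and 0.40 on the batch 6 plates (95 and 91 cells). Between Cxcl2 and Cxcl10 it was 0.58 and 0.45, and 0.27 and 0.23 in batch 6. Ccl5 with the other 4 ranged from -0.11 to 0.28 over these plates. In PBS-primed PB neutrophils, r between Ccl3 and Ccl4 was 0.10 and 0.24, and 0.20 and 0.48 in batch 6. Counted in thinned cells, 54.9% and 60.5% of LPS-primed PB cells in samples 1 and 2 and 64.2% and 73.6% in batch 6 held at least 2 of the 4 called genes, against 3.33% and 11.6%, and 12.5% and 14.3%, after PBS.

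**Figure D5:**
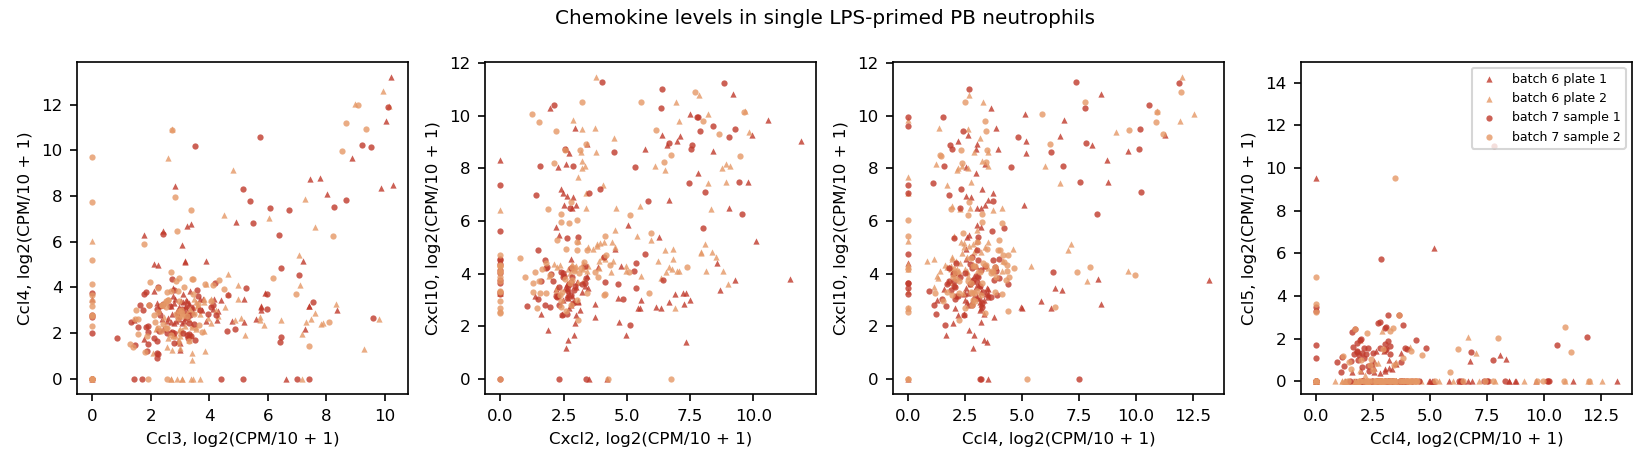
Levels of pairs of chemokines in single LPS-primed PB neutrophils, as log2(CPM/10 + 1) on both axes. Circles are cells of batch 7 and triangles cells of batch 6. Most cells form a cloud at a low level. A tail reaches high values of both genes for Ccl3 with Ccl4 and for Cxcl2 with Cxcl10. The few cells with high Ccl5 stand apart along the Ccl5 axis. That of sample 1 also had 2225 CPM of Ccl4, and those of sample 2 and of batch 6 had 99.1 and 0 CPM.

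The genes whose pattern across cells was most like each member were taken by mean r over the 2 LPS-primed PB samples, among 3180 genes of at least 20 CPM. For Ccl3 they were Nr4a1 (0.55), Ccl4 (0.53), Tnfaip3 (0.48), Cxcl10 (0.45) and Bcl2a1d (0.44). For Ccl4 they were Nr4a1 (0.53), Ccl3 (0.53), Bcl2a1d (0.45), Tnip1 (0.44) and Cxcl10 (0.42). Nr4a1 is an immediate early nuclear receptor, and Tnfaip3, or A20, is an inhibitor of NF-kB signalling. The r of Nr4a1 with Ccl4 fell to 0.12 and 0.33 on the batch 6 plates, and that of Bcl2a1d to 0.11 and -0.01.

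For Cxcl10 the nearest genes were Ccrl2 (0.64), Tnfaip3 (0.55), Cxcl2 (0.52), Nr4a1 (0.51) and Nfkbia (0.51), and for Cxcl2 they were Cxcl10 (0.52), Nfkbia (0.51), Ccrl2 (0.45), Acod1 (0.45) and Ccl3 (0.44). Nfkbia encodes the NF-kB inhibitor IkBa, and Ccrl2 a receptor that binds chemerin. On the batch 6 plates r was 0.43 and 0.36 for Ccrl2 with Cxcl10, 0.50 and 0.33 for Nfkbia with Cxcl10, 0.46 and 0.27 for Tnfaip3 with Cxcl10, 0.095 and 0.15 for Nr4a1 with Cxcl10, and 0.50 and 0.33 for Nfkbia with Cxcl2. For Ccl5 the nearest, Tapbpl, had 0.70 in sample 2 and -0.06 in sample 1, so that no gene followed it in both to any degree above 0.32 on average.

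In marrow the members were low and LPS called none of them, where 0.0708% of the 8478 genes were called by the same edgeR test. For Ccl5, with 0 UMIs in the BM samples, and Ccl4, with 8 after PBS and 5 after LPS, this decides nothing. At an unadjusted p under 0.05 there were 2 members, Ccl3 lower and Cxcl2 higher, where 8.07% of genes were below it, and DESeq2 called 1 member and 2.25% of genes. Ccl3 had 2.87 and 16.3 CPM in PBS-primed and 0.386 and 2.80 CPM in LPS-primed BM samples, with a log2 fold change of -2.76 ± 0.87 (SE, adjusted p = 0.501). The groups were barely apart, and 91.2% of the Ccl3 UMIs of PBS-primed BM sample 2 came from 1 cell with 124 UMIs. In batch 6 the PBS plates had 11.6, 1.09, 45.2 and 3.75 CPM and the LPS plate 2.74 CPM. DESeq2 called Ccl3 lower (adjusted p = 0.0156).

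Cxcl2 was the member seen in the largest share of BM cells in each labelled BM sample. It had 2.87 and 25.6 CPM in PBS-primed and 84.1 and 41.3 CPM in LPS-primed BM samples, with a log2 fold change of 1.92 ± 0.78 (SE, adjusted p = 0.61). In batch 6 the order was the opposite, with 32.8, 55.7, 292 and 181 CPM on the PBS plates and 14.3 CPM on the LPS plate. The shares of thinned cells were 4.82% and 6.52% after PBS and 10.99% and 7.61% after LPS in batch 7, and 5.95%, 9.89%, 28.9% and 25.0% after PBS and 7.95% after LPS in batch 6. A single cell held 51.9% of the Cxcl2 UMIs of PBS-primed BM sample 2. The order of the groups was therefore not the same in both batches, and without PBS-primed BM sample 2 Cxcl2 was called higher after LPS (4.28, adjusted p = 0.0447, edgeR).

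Ccl4 had 2 and 6 UMIs in the PBS-primed and 0 and 5 UMIs in the LPS-primed BM samples, and Cxcl10 2 and 18 UMIs and 9 and 7 UMIs. Neither was seen in more than 1 thinned cell of any BM sample. Ccl5 had 0 UMIs in all 4 BM samples, which allows up to 3.61%, 3.26%, 3.30% and 3.26% of their cells to hold a UMI by a limit of 3 over the number of cells, or 4.35%, 3.93%, 3.97% and 3.93% by the exact interval used above, and at most 17 UMIs on a BM plate of batch 6. Over the BM plates of batch 6, Cxcl10 ranged from 0.198 to 4.31 CPM and Ccl4 from 2.38 to 5.81 CPM. So the marrow of both batches, after PBS or LPS, carried these 3 transcripts at no more than a few CPM.

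The difference between the LPS effects in blood and marrow was then tested in the same fit. It was called for 3 members, where 1.5% of genes were called. The effect of LPS in PB minus that in BM was 7.60 ± 1.23 on the log2 scale for Ccl3 (SE, adjusted p = 0.00911), 7.38 ± 1.14 for Ccl4 (adjusted p = 0.00688) and 8.47 ± 0.85 for Cxcl10 (adjusted p = 0.000415, edgeR for all 3). For Cxcl2 it was 3.09 ± 1.10 (adjusted p = 0.276), which became a call without PBS-primed BM sample 1 (adjusted p = 0.0185) or with DESeq2 (adjusted p = 0.0367), and for Ccl5 the absence of UMIs in marrow left no estimate. The call of Ccl3 was lost without either PBS-primed PB sample (adjusted p = 0.095 and 0.0967) and that of Ccl4 without PBS-primed BM sample 2 (adjusted p = 0.156) or without the 2 highest cells of each gene (adjusted p = 0.228). limma-voom called 0 of the 3 and 1% of genes (adjusted p of 0.143 for Ccl3, 0.445 for Ccl4 and 0.146 for Cxcl10), and with thinned cells, where 2.4% of genes were called, only Ccl3 was. Within batches the same difference of log2 CPM ratios, given without a test, was 6.59 in batch 7 and 3.19 in batch 6 for Ccl3 and 7.48 and 6.95 for Cxcl10. For Ccl4 it was 6.38 in batch 7 and 0.12 in batch 6, where the LPS to PBS ratios were 1.93 in PB and 1.78 in BM, and 1.80 in batch 6 without the T and NK marked cells. With both batches in 1 fit the 3 genes were called, at 6.29, 5.25 and 7.92 for Ccl3, Ccl4 and Cxcl10, where 2.35% of genes were.

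After LPS all 5 members were higher in PB than in BM neutrophils, where 3.73% of genes were called. The log2 differences were 8.67 ± 1.07 for Ccl3 (SE, adjusted p = 0.00106), 12.59 ± 0.88 for Ccl4 (adjusted p = 2.12e-05), 3.80 ± 0.84 for Cxcl2 (adjusted p = 0.0296) and 11.59 ± 0.74 for Cxcl10 (adjusted p = 1.89e-05, edgeR for all). Ccl4 here rests on 5 UMIs in the BM samples. Ccl5, with 2253 UMIs in LPS-primed PB samples and 0 in LPS-primed BM samples, was at least 977-fold higher by CPM against a floor of 3 UMIs over the group (adjusted p = 0.0301), and this value rests on 1 cell in each PB sample (at least 1342-fold for sample 1 and 580-fold for sample 2). Without the 2 highest cells of each gene Ccl5 was not called (adjusted p = 0.0735). Leaving out either LPS-primed BM sample ended the calls of Ccl5 (adjusted p = 0.141 and 0.121) and Cxcl2 (adjusted p = 0.11 and 0.215). Cxcl2 also missed the threshold with library size alone (adjusted p = 0.0674) and without PBS-primed PB sample 1 or 2 (adjusted p = 0.0616 and 0.0635). In batch 6 the CPM ratio of LPS-primed PB to LPS-primed BM was 198 for Ccl3, 162 for Ccl4, 12.7 for Ccl5, 69.1 for Cxcl2 and 278 for Cxcl10.

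Already after PBS, Ccl4 and Cxcl10 were higher in PB than in BM neutrophils, 2 of 5 members where 2.61% of genes were called. The log2 differences were 5.21 ± 0.71 for Ccl4 (SE, adjusted p = 0.00271) and 3.13 ± 0.57 for Cxcl10 (adjusted p = 0.0145, edgeR). Ccl3 and Cxcl2 differed by 1.08 ± 0.78 (adjusted p = 0.514) and 0.71 ± 0.77 (adjusted p = 0.706). Ccl5, at 1367 UMIs in PBS-primed PB and 0 in PBS-primed BM samples, was at least 844-fold higher by CPM against the same floor, with an adjusted p of 0.0579. Of these UMIs 1363 were in sample 1, where 1 cell with T and NK markers held 84.2%, and 4 in sample 2, which alone was at least 6.31-fold higher. Without the T and NK marked cells of both samples the bound was 59.8-fold. In batch 6 the CPM ratio of PBS-primed PB to PBS-primed BM was 149 for Ccl4 (45.0 without the marked cells), 2.24 for Cxcl10, 21.7 for Ccl3, 4.33 for Cxcl2 and 332 for Ccl5 (25.7 without the marked cells). For Ccl3 and Cxcl2 the batch 7 ratios were 2.88 and 2.06. These comparisons share their control samples with those above. Cxcl10 lost the call without PBS-primed PB sample 2 (adjusted p = 0.112) and with thinned cells (adjusted p = 0.0849, with 5.79% of genes called), and limma-voom, with 4.36% of genes called, called neither (adjusted p of 0.383 for Ccl4 and 0.243 for Cxcl10). Cxcl2 was called without PBS-primed BM sample 2 (adjusted p = 0.0488), and the adjusted p of Ccl5 ranged from 0.00247 to 0.228 over the alternatives. Ccl5 was called by DESeq2 (0.0121), with library size alone (0.0423), without the expression filter (0.0433), with the replicate block (0.0135), without the T and NK marked cells (0.0418), with both batches (0.00247) and without PBS-primed PB sample 2, either LPS-primed PB sample or either LPS-primed BM sample (0.00432 to 0.0412).

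The order of the groups in batch 7 was the same for Ccl4 and Cxcl10, with LPS-primed PB above PBS-primed PB and both BM groups near 0 and overlapping. For Ccl3 the samples of PBS-primed PB (29.2 and 29.6 CPM) and PBS-primed BM (2.87 and 16.3 CPM) did not overlap but did not differ beyond their spread by the test. For Cxcl2 the PBS-primed PB, PBS-primed BM and LPS-primed BM samples lay between 2.87 and 84.1 CPM, below LPS-primed PB at 501 and 665 CPM.

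The deposited annotation divides most LPS-primed PB cells of batch 7 between clusters 1 (83 cells) and 2 (84 cells), and 185 of 186 cells of batch 6 lie in cluster 2. With the cells of batch 7 pooled, Cxcl10 had 624 CPM in cluster 1 and 3056 CPM in cluster 2, Ccl4 271 and 2019 CPM, Ccl3 184 and 621 CPM, and Cxcl2 218 and 821 CPM. Cluster 2 was higher for all 4 by pooled CPM, which is a description only, since clusters were drawn on the same cells. The median cells of clusters 1 and 2 had 156 and 687 CPM of Cxcl10, 55.7 and 66.9 of Ccl3, and 53.3 and 69.5 of Cxcl2. For Ccl4 their order was the opposite, at 73.7 and 59.7 CPM. The thinned shares were close for Cxcl10 (65.1% and 69.0%) and further apart for Ccl3 (30.1% and 48.8%).

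Other genes of the pathway in LPS-primed against PBS-primed PB neutrophils were counted over lists, beside a median log2 fold change of -0.11 over all genes. Among all genes 3.94% were called with TMM and 4.81% with library size alone. Of 32 other chemokine ligands listed, 17 were in the table and 6 could be tested. None passed with edgeR and TMM (1 at an unadjusted p under 0.05), and 1 was lower with library size alone, with a median of -1.01, or -0.98 without the gene that had no UMI in a group. Ccl6, the only one abundant in all groups, had 3596 and 2813 CPM after PBS and 821 and 666 CPM after LPS, a log2 fold change of -1.20 ± 0.30 (SE, adjusted p = 0.0504), and was called lower with library size alone (-2.11, adjusted p = 0.00394). In batch 6 it had 3239 and 3079 CPM after PBS and 72.5 and 66.1 CPM after LPS. Pf4 and Ppbp, platelet chemokines, had 244 and 157 CPM and 169 and 97.2 CPM after PBS and 47.5 and 60.2 CPM and 59.8 and 10.9 CPM after LPS (adjusted p = 0.534 and 0.693, edgeR).

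Of 9 receptors listed, 5 were tested and 2 passed, Ccrl2 and Ccr1, with a list median of 0.48, or 0.74 without the gene that had no UMI in a group. Ccrl2 had 2.38 and 4.32 CPM after PBS and 243 and 321 CPM after LPS, a log2 fold change of 7.33 ± 0.98 (SE, adjusted p = 0.00215). Ccr1, the receptor of CCL3 and CCL5, had 1385 and 1251 CPM after PBS and 1445 and 1372 CPM after LPS, and its log2 fold change of 1.01 ± 0.24 (adjusted p = 0.0432) became 0.09 (adjusted p = 0.858) with library size alone. In batch 6 Ccr1 had 1267 and 1279 CPM after PBS and 699 and 1013 CPM after LPS, the opposite order by CPM. TMM scaling, used for the call, raised the batch 6 ratio of Ccl3 from 1.91 to 4.12. The order of Ccr1 by CPM thus need not hold on that scale. Ccrl2 had 101 and 42.6 CPM after PBS and 215 and 261 CPM after LPS in batch 6. Cxcr2, the receptor of CXCL2, had 2886 and 2576 CPM after PBS and 2159 and 1889 CPM after LPS (adjusted p = 0.343), and its direction turned with the scaling, from 0.48 to -0.44.

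Of 25 tested genes of LPS sensing and its transcription factors, 5 rose and 0 fell, and 4 rose with library size alone, beside the 3.94% and 4.81% over all genes. Cd14, the LPS co-receptor, went from 87.3 and 126 CPM to 1173 and 1388 CPM, with a log2 fold change of 4.51 (adjusted p = 0.00423). Irak3, an inhibitory kinase of the TLR pathway, rose by 5.19 (adjusted p = 0.000885). Of the ISRE-binding arm, Stat2 rose by 4.04 (adjusted p = 0.00137), Irf7 by 3.35 (adjusted p = 0.000784) and Irf9 by 2.31 (adjusted p = 0.0278, and 0.141 with library size alone). On the batch 6 plates Cd14, Irak3, Stat2 and Irf7 were also higher after LPS on each plate, while Irf9 overlapped, with 136 and 311 CPM after PBS and 162 and 207 CPM after LPS. Tlr4 had 122 and 42.3 CPM after PBS and 78.1 and 71.7 CPM after LPS (adjusted p = 0.679). Among the genes of at least 50 CPM in their highest group that are reported here, Lbp, Myd88, Tirap, Irak1, Irak2, Irak4, Nfkb1, Nfkb2, Rela, Relb, Irf1 and Irf5 did not pass either.

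Of 10 factors that destabilise chemokine mRNA or end the response, 2 rose and 0 fell, with a median of 1.66, and 1 rose with library size alone, beside the same shares over all genes. Nfkbia rose from 428 and 438 CPM to 2768 and 2176 CPM, a log2 fold change of 3.42 ± 0.23 (SE, adjusted p = 8.1e-06). Nfkbiz, a nuclear IkB protein, rose by 1.70 (adjusted p = 0.0284, and 0.25 with library size alone). In batch 6 Nfkbia had 437 and 335 CPM after PBS and 2787 and 2795 CPM after LPS. Nfkbiz had 629 and 556 CPM after PBS and 284 and 296 CPM after LPS there, the opposite order by CPM. As for Ccr1, this order need not hold on the TMM scale. Zfp36, whose product tristetraprolin binds AU-rich elements of such mRNAs, had 1037 and 877 CPM after PBS and 1158 and 784 CPM after LPS (adjusted p = 0.0751), and on the batch 6 plates 1373 and 1420 CPM after PBS and 548 and 646 CPM after LPS. Zfp36l1, Zc3h12a, Tnfaip3, Socs1 and Socs3, each with at least 50 CPM in their highest group, did not pass.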

How the data were processed

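Per the deposited notes and the methods, the authors trimmed reads with Cutadapt 1.15, aligned them to mm9 with STAR 2.6.0a, counted them with HTSeq 0.11.2 and deposited raw UMI counts of 10970 genes in each cell. Their clusters were used once, and no deposited fold change was used. Strand use in counting is not given in the sources used here. Cells were assigned by name to the 8 labelled samples (batch 7) or to a group (batch 6). Cells had been picked singly, and doublets were not called. UMIs of the 9919 genes seen in at least 10 cells were summed per sample and tested with edgeR 4.0.16 in R 4.3.3 (filterByExpr, TMM, quasi-likelihood, all 4 groups in 1 model), two-sided, with Benjamini-Hochberg adjustment over 8478 genes. Alternatives used DESeq2 1.42.0, limma 3.58.1, other scaling, filters, thinned cells and left-out samples or cells. Summed depth was 3240559 to 12020616 UMIs per plate. The members are reported in full, and pathway genes were named where they passed the test or had at least 50 CPM in the highest group. Members and lists were chosen with earlier results of these data known. Each sample's replicate number was checked for pairing by correlating deviations between groups. Some pathway genes are not reported here.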

Additional observations from a re-analysis of the deposited data

Results flagged for a closer look

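The effect of LPS differed between blood and marrow neutrophils for 3 members by a test of the difference itself (the interaction term in edgeR). The same test called 1.5% of all genes. On the log2 scale the effect in PB exceeded that in BM by 7.60 for Ccl3 (adjusted p = 0.00911), by 7.38 for Ccl4 (adjusted p = 0.00688) and by 8.47 for Cxcl10 (adjusted p = 0.000415). Each LPS-primed PB sample was above both PBS-primed PB samples for the 3 genes. In BM neutrophils no member was called, where 0.0708% of genes were. That decides nothing for Ccl5, with 0 UMIs in the BM samples, or Ccl4, with 8 UMIs after PBS and 5 after LPS. limma-voom called 0 of the 3 and 1% of genes. Within batch 6, without a test, the difference of log2 CPM ratios was 3.19 for Ccl3, 0.12 for Ccl4 and 6.95 for Cxcl10. Without the T and NK marked cells that of Ccl4 was 1.80. These ratios are without TMM scaling. With it, Ccl4 of batch 6 had 368 CPM after PBS and 1531 CPM after LPS in PB, and 3.48 and 6.30 CPM in BM. With 2 samples per group no sample could be tested as standing apart from its group.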

How the results depend on the processing

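The 4 calls in LPS-primed against PBS-primed PB neutrophils (Ccl3, Ccl4, Cxcl2, Cxcl10) held under DESeq2 (12.3% of genes called) and limma-voom (3.64%). They also held with library size alone (4.81%), no expression filter (3.41%), thinned cells (6.48%) and the 2 highest cells left out (6.02%). The same was true with T and NK marked cells left out (3.73%) and with both batches together (7.55%). The main fit called 3.94% of genes in this comparison. Leaving out 1 sample gave 2 to 4 called members there, 0 to 1 for LPS in BM, 2 to 4 for the difference between tissues, 3 to 5 for PB against BM after LPS and 2 to 3 after PBS, where 1.61% to 4.36%, 0.022% to 0.305%, 0.874% to 1.82%, 1.57% to 4.15% and 1.19% to 3.71% of genes were called. A group reduced to 1 sample in this way is taken to vary like the other groups. Correlations between groups of the deviations of samples 1 and 2 were -0.027 to 0.0052. Each of them uses 1 difference of 2 samples per group, so they do not decide whether the numbers pair the samples. With the replicate block the log2 fold changes in PB were 4.89 for Ccl3, 6.49 for Ccl4, 5.15 for Cxcl2 and 7.99 for Cxcl10, with 4 members and 374 genes called. For LPS in BM, DESeq2 called 1 member, Ccl3, and 2.25% of genes. The difference between tissues was called for 0 members with limma-voom and 1 with thinned cells, and PB against BM after PBS for 0 and 1. Thinned cells called a larger share of the genes tested (2.4% and 5.79%, against 1.5% and 2.61%). In number these were 118 of 4926 genes against 127 of 8478, and 285 against 221. The cause was not tested, and thinning leaves fewer UMIs. Values near 0 in marrow turned sign: for LPS in BM, Ccl4 had 2.27 with thinned cells, 0.026 without the 2 highest cells, 0.19 with both batches and -4.80 to 0.041 when 1 sample was left out (above 0 without LPS-primed BM sample 1), and Cxcl10 had 0.050 with limma-voom, 0.14 with both batches and -1.30 to 1.58 when 1 sample was left out (above 0 without PBS-primed BM sample 2). For PB against BM after PBS, Cxcl2 had -0.14 without PBS-primed BM sample 1 and 3.06 without sample 2. None of these values but the last passed the test. The share of LPS-primed PB cells depends on its definition: as deposited it was 87.4% for Ccl3, 91.0% for Ccl4, 45.3% for Ccl5, 84.7% for Cxcl2 and 96.6% for Cxcl10, with at least 3 UMIs 59.2%, 61.1%, 52.9% and 84.1% for Ccl3, Ccl4, Cxcl2 and Cxcl10, and above 0.2% of the plate's UMIs 15.8%, 28.8% and 27.7% for Ccl4, Cxcl2 and Cxcl10. The mean share with at least 2 of the 4 called genes, 57.7% in thinned cells, was 97.7% as deposited, 76.7% with at least 3 UMIs and 32.7% above that limit. By that limit the PBS-primed PB samples had 60% and 62.8%, more than the 34.1% and 31.4% after LPS. Single genes also had larger shares after PBS (39.2% for Ccl4, 54.7% for Cxcl2 and 41.5% for Cxcl10). The limit lay below 1 UMI for these genes in the PBS samples, so it does not compare the groups. With 2 samples per group and 1 cell often holding most UMIs of a gene, single samples decide several of these calls.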
